A study of Mus musculus with 30 samples.

Results

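The genes described here are 10 regulators of the G1 phase of the cell cycle: the D-type cyclins Ccnd1, Ccnd2 and Ccnd3, the E-type cyclins Ccne1 and Ccne2, the CDK inhibitors Cdkn1a, Cdkn1b and Cdkn2c, the retinoblastoma gene Rb1, and Mdm2. They were taken by symbol, as 10 of the 53350 named genes in an RNA-seq table of 30 libraries, and all 10 passed the filter on low values (1 FPKM or more in 5 or more libraries) that left 12744 genes for testing. The cells were 3T3-L1, a mouse fibroblast line bought from a supplier and kept to low passage, which can turn into fat cells. Every culture received a medium with serum, insulin and the phosphodiesterase inhibitor IBMX before exposure began, so the controls carried this adipogenic stimulus too. QpE (quizalofop-p-ethyl), a herbicide, was then added at 50 µM. There were 6 groups of 5 cultures: control at 6 h, QpE at 6 h, control at 24 h, QpE at 24 h, control at 12 days and QpE at 12 days. The protocol lists medium changes over fewer days than the 12 day label, which is used as given. The labels number the cultures 1 to 5 in each group and do not say what the cultures of a group shared, so p-values measure the spread between these cultures.

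D-type cyclins bind the kinases Cdk4 and Cdk6, and E-type cyclins bind Cdk2. These kinases phosphorylate the retinoblastoma protein, which otherwise holds E2F factors and keeps genes of DNA replication low. Cdkn2c (p18) blocks Cdk4 and Cdk6, Cdkn1a (p21) and Cdkn1b (p27) act mainly on cyclin and Cdk2 complexes, and Mdm2 marks the p53 protein, an activator of Cdkn1a, for degradation. Fat cell conversion of 3T3-L1 is known to start with a round of cell division in the adipogenic medium, followed by exit from the cycle.

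Values are FPKM, fragments scaled to transcript length and library total, summed over the named transcripts of a gene. Differences are of log2(FPKM + 1) with their standard error (SE), tested with limma against the spread of the groups compared, and called at an adjusted p under 0.05. No pair of libraries was identical, and libraries of a group correlated at r = 0.912 to 0.956 across genes. The label of differentiated cells was set against 10 adipocyte markers, whose summed level was 105 to 476 FPKM in the libraries of 6 h and 24 h and 941 to 7574 FPKM at 12 days. Lep was under 1 FPKM in every library. The 10 fibroblast markers summed to 4443 to 8489 FPKM in every group but QpE at 12 days, where they were 473.6 to 3365 FPKM. At 12 days cultures 3 and 4 had lower adipocyte markers than the other cultures in both groups, and QpE culture 5 had the lowest fibroblast markers. All 5 endothelial markers and 4 of 6 macrophage markers (Ptprc, Adgre1, Csf1r and Itgam) were under 1 FPKM in every library. The 6 macrophage markers summed to at most 6.95 FPKM, and 1 of the 2 tested, Cd68, was higher at 12 days than at 24 h, by 1.00 ± 0.24 in controls (limma adjusted p = 0.0116) and 1.57 ± 0.23 in QpE cultures (0.000529). In such bulk RNA, fewer cells of a type and less RNA per cell cannot be told apart.

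Over all 30 libraries the 10 genes covered a wide range of levels per length. Mdm2 had a mean of 1168 FPKM, and only 14 tested genes had a higher mean. Ccnd2 followed at 108.1 FPKM, Ccnd3 at 70.0 FPKM, Cdkn2c at 57.1 FPKM, Ccnd1 at 50.4 FPKM, Cdkn1a at 41.5 FPKM and Cdkn1b at 24.1 FPKM. Ccne1 stood at 14.2 FPKM, Ccne2 at 5.78 FPKM and Rb1 at 5.42 FPKM. The median of all tested genes was 8.90 FPKM, so 8 members lay above it, and Ccne2 and Rb1 lay below it.

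**Figure D1:**
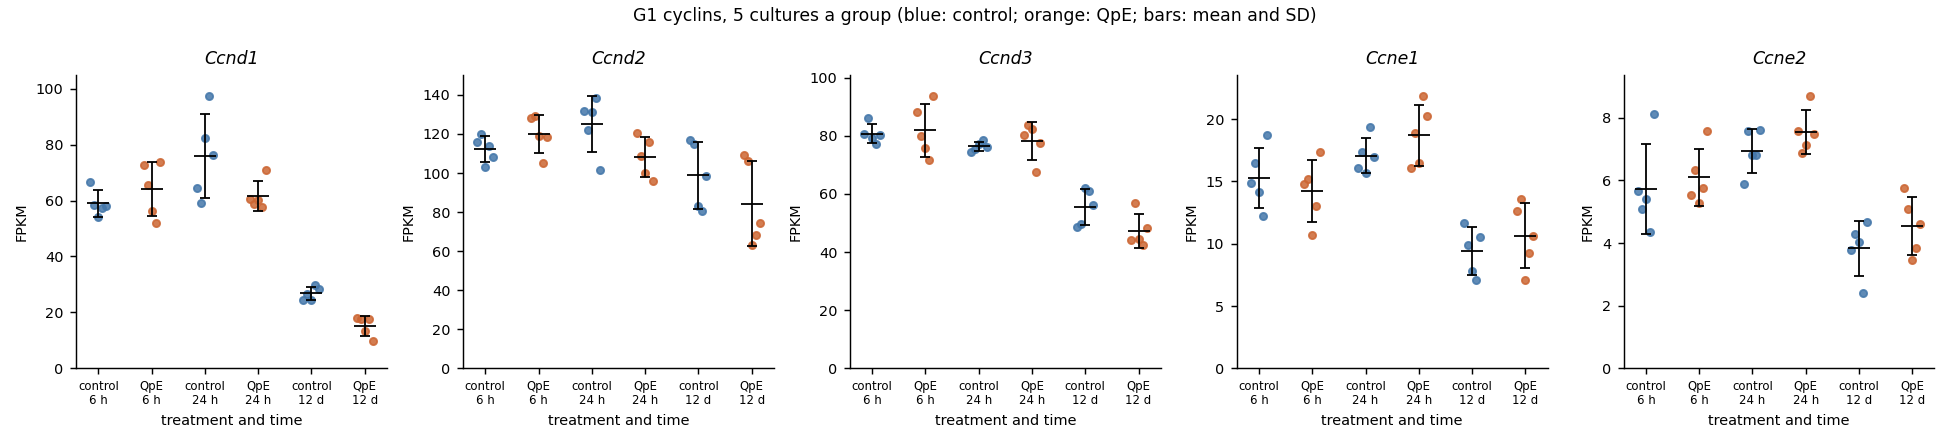
FPKM of the 5 G1 cyclins (vertical axes, each from 0) in the 6 groups; each point is a culture and bars give the mean and SD of 5 cultures. Ccnd1 falls from a mean of 75.9 FPKM in the 24 h controls to 26.8 FPKM in the 12 day controls and is at 15.2 FPKM with QpE at 12 days.

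Ccnd1, the D-type cyclin best known as a target of growth factor signalling (chr7:144929931-144939925, minus strand, GRCm38), was the cyclin that moved most. The 6 h controls 1 to 5 had 66.7, 58.6, 53.9, 57.3 and 58.2 FPKM, and the 6 h QpE cultures had 72.8, 65.7, 56.3, 52.0 and 73.8 FPKM. The 24 h controls had 64.6, 59.0, 82.2, 97.3 and 76.3 FPKM, and the 24 h QpE cultures had 60.5, 58.7, 60.3, 57.8 and 70.8 FPKM. These 4 groups overlapped. The 12 day controls had 24.5, 26.6, 24.5, 29.9 and 28.5 FPKM, and the 12 day QpE cultures had 17.9, 17.6, 13.2, 17.6 and 9.65 FPKM. All 12 day libraries lay below all earlier ones, and every QpE library at 12 days lay below every 12 day control.

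From 24 h to 12 days Ccnd1 fell in controls by 1.45 ± 0.13 on the log2 scale (SE, n = 5 a group, limma adjusted p = 5.2e-05), to 0.353 of its 24 h mean. In QpE cultures it fell by 1.98 ± 0.16 (limma adjusted p = 2.83e-05), to 0.247 of its 24 h mean. These values do not share libraries with each other. Over the same interval 28.6% of all tested genes were called in controls (11.3% higher and 17.3% lower) and 37.5% in QpE cultures (15.4% higher and 22.1% lower), and the median difference of all tested genes was -0.08 and -0.10.

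At 12 days Ccnd1 was the only one of the 10 genes called between QpE and control. With QpE it stood at 0.567 of the control mean, going from 26.8 ± 2.42 to 15.2 ± 3.65 FPKM (SD, n = 5), and the groups did not overlap. The difference was -0.81 ± 0.16 on the log2 scale, with an interval of -1.17 to -0.44 and a limma adjusted p of 0.0213. Of all 12744 genes tested, 9.13% were called at 12 days (3.91% higher and 5.23% lower with QpE), so 1 of 10 members is a share near the background. Fibroblast markers were lower with QpE in the same comparison, with 7 of 9 tested members called, and their part in the Ccnd1 difference was not tested. The call missed the threshold when control 2 (limma adjusted p = 0.0509), control 4 (0.0535) or control 5 (0.0524) was left out, with differences of -0.81, -0.77 and -0.79. Without QpE culture 5, the lowest library, the difference was -0.67 (limma adjusted p = 0.0104).

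The effect of QpE on Ccnd1 also differed between times. Its difference from control was 0.11 ± 0.10 at 6 h, -0.28 ± 0.13 at 24 h and -0.81 ± 0.16 at 12 days, all on the log2 scale. The 12 day effect was lower than the 6 h effect by an interaction of -0.92 ± 0.20 (limma adjusted p = 0.0196), where 4.24% of all genes tested were called, 2.05% with a higher and 2.19% with a lower effect at 12 days. Against the 24 h effect the interaction was -0.53 ± 0.21, with an interval of -0.98 to -0.09 that is not adjusted for the number of genes, and was not called (limma adjusted p = 0.221). The 24 h difference of Ccnd1 itself did not pass the test (limma adjusted p = 0.634). With culture number 5 left out of every group, the interaction with 6 h was -0.70 and no longer called (limma adjusted p = 0.0537). Nor was it called with cultures 1, 2 and 5 only (-1.03, limma adjusted p = 0.0797) or with cultures 3 and 4 only (-0.75, 0.145).

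Ccnd2 (chr6:127125162-127152193, minus strand), a D-type cyclin with its own tissue pattern, was the most abundant of the cyclins in every group. It averaged 112.3 ± 6.63 FPKM in controls and 120.0 ± 9.73 FPKM with QpE at 6 h, and 124.9 ± 14.4 and 108.2 ± 10.4 FPKM at 24 h (SD, n = 5). At 12 days the controls 1 to 5 had 116.9, 115.1, 83.2, 80.8 and 98.4 FPKM and the QpE cultures had 109.4, 105.9, 63.4, 68.5 and 74.4 FPKM. At 12 days each QpE library was below the control of the same number, while the groups overlapped at both times. Neither difference passed the test: it was -0.20 ± 0.10 at 24 h (limma adjusted p = 0.643) and -0.25 ± 0.18 at 12 days (0.444). With the culture number as a block the 12 day SE was 0.08, and Ccnd2 was still not called (limma adjusted p = 0.0811). From 24 h to 12 days the difference was -0.34 ± 0.13 in controls (limma adjusted p = 0.0697) and -0.39 ± 0.16 in QpE cultures (0.0868), and neighbouring groups in its order of means overlapped throughout.

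Ccnd3 (chr17:47505051-47599691, plus strand), a D-type cyclin known for its rise in several differentiating cell types, fell here over time. At 24 h the controls had 74.6, 75.5, 77.4, 78.6 and 76.1 FPKM and the QpE cultures 80.4, 83.7, 82.3, 67.6 and 77.5 FPKM. At 12 days the controls had 48.8, 49.6, 62.2, 61.0 and 56.2 FPKM and the QpE cultures 44.0, 57.0, 44.5, 42.5 and 48.4 FPKM. No 12 day library reached the lowest 24 h library. Ccnd3 fell by 0.46 ± 0.08 on the log2 scale in controls (limma adjusted p = 0.00161) and by 0.72 ± 0.10 in QpE cultures (0.00041). Between QpE and control at 12 days it differed by -0.23 ± 0.11, with 4 of 5 numbers lower and an interval of -0.47 to 0.01, and was not called (limma adjusted p = 0.221).

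The mix of D-type cyclins shifted with these changes. Ccnd1 made up 23.4% ± 1.2 of the summed D-type FPKM in controls at 6 h, 27.2% ± 3.6 at 24 h and 14.8% ± 1.7 at 12 days (SD, n = 5). With QpE it made up 24.0% ± 1.5, 24.9% ± 2.4 and 10.4% ± 2.3. Ccnd2 held 43.6% to 45.2% of the sum in the 4 early groups, 54.3% ± 6.5 in 12 day controls and 56.9% ± 4.6 with QpE at 12 days. The sum itself was 252.0 ± 12.1 FPKM in 6 h controls, 181.2 ± 10.0 FPKM in 12 day controls and 146.8 ± 27.1 FPKM with QpE at 12 days.

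The E-type cyclins Ccne1 (chr7:38097984-38107534, minus strand) and Ccne2 (chr4:11191351-11204779, plus strand), which drive entry into S phase with Cdk2, fell together by 12 days in controls and QpE cultures alike. The 24 h controls had 16.1, 17.3, 15.7, 19.3 and 16.9 FPKM of Ccne1 and the 12 day controls 11.7, 9.90, 7.83, 7.06 and 10.5 FPKM. The QpE cultures had 16.1, 18.9, 16.5, 21.8 and 20.3 FPKM of Ccne1 at 24 h and 12.6, 13.6, 7.07, 9.28 and 10.7 FPKM at 12 days. The 24 h and 12 day libraries did not overlap in either treatment. Ccne1 fell by 0.82 ± 0.13 on the log2 scale in controls (limma adjusted p = 0.0012) and by 0.78 ± 0.17 in QpE cultures (0.00435).

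Ccne2 fell by 0.73 ± 0.14 in controls (limma adjusted p = 0.0038), from 6.94 ± 0.71 to 3.83 ± 0.87 FPKM (SD, n = 5), and by 0.64 ± 0.14 in QpE cultures (0.00454), from 7.55 ± 0.70 to 4.54 ± 0.93 FPKM. Ccne1 kept 69.9% to 73.0% of the summed E-type FPKM in the means of all 6 groups. QpE and control did not differ in either gene beyond the spread: at 12 days the difference was 0.15 ± 0.19 for Ccne1 (limma adjusted p = 0.661) and 0.20 ± 0.18 for Ccne2 (0.512). Across the 30 libraries Ccne1 and Ccne2 correlated at r = 0.912 on the log2 scale, which includes the shared differences between times.

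**Figure D2:**
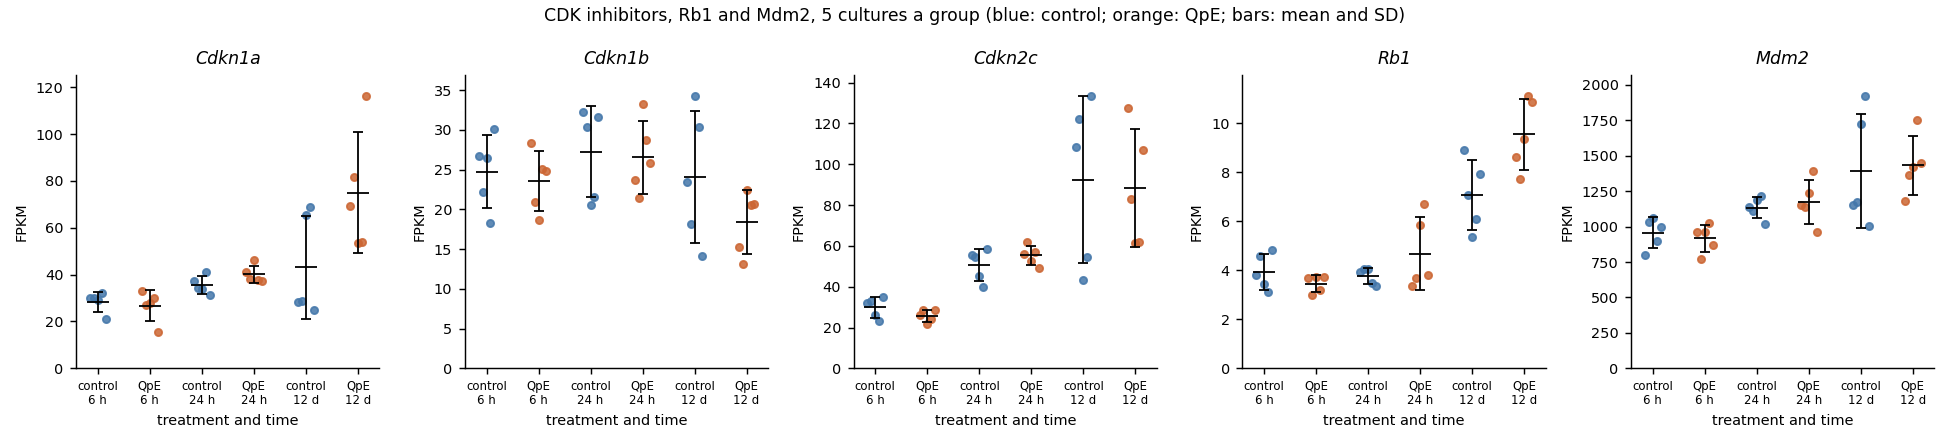
FPKM of the CDK inhibitors Cdkn1a, Cdkn1b and Cdkn2c, of Rb1 and of Mdm2 (vertical axes, each from 0) in the 6 groups; each point is a culture and bars give the mean and SD of 5 cultures. Cdkn2c and Cdkn1a spread widely at 12 days, from 43.4 to 133.3 FPKM and from 24.9 to 116.1 FPKM.

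Cdkn2c encodes p18, an inhibitor of Cdk4 and Cdk6 (chr4:109660876-109667189, minus strand). It rose between 6 h and 24 h in both treatments. The 6 h controls had 31.9, 33.2, 25.9, 22.96 and 35.2 FPKM and the 24 h controls 55.5, 54.7, 45.3, 40.0 and 58.7 FPKM. The 6 h QpE cultures had 25.98, 28.6, 21.9, 24.1 and 28.4 FPKM and the 24 h QpE cultures 56.2, 61.8, 52.5, 57.1 and 49.1 FPKM. Every 24 h library lay above every 6 h library. The rise was 0.75 ± 0.14 on the log2 scale in controls, a ratio of 1.70 (limma adjusted p = 0.00553), and 1.075 ± 0.089 in QpE cultures, a ratio of 2.15 (0.000103). Over this interval 17.8% of all genes tested were called in controls (8.08% higher and 9.7% lower) and 18.8% in QpE cultures (10% higher and 8.79% lower).

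At 12 days Cdkn2c split by culture number. The 12 day controls 1 to 5 had 108.5, 122.3, 43.4, 54.5 and 133.3 FPKM and the QpE cultures had 127.5, 82.9, 61.6, 61.8 and 107.1 FPKM. Cultures 3 and 4, which had the lower adipocyte markers, were the lowest in both groups. Their summed adipocyte markers were 1117 and 941 FPKM in controls and 3303 and 3331 FPKM with QpE, against 4289 to 5454 and 7041 to 7574 FPKM in the other cultures. Whether this marker level has a part in the Cdkn2c values was not tested. Cdkn2c differed by 0.01 ± 0.35 between QpE and control, with an interval of -0.76 to 0.77 (limma adjusted p = 0.993). From 24 h to 12 days it rose in QpE cultures by 0.61 ± 0.20 (limma adjusted p = 0.0339), a call that was lost when any of 7 libraries was left out, QpE cultures 1, 3, 4 and 5 at 24 h and 1, 2 and 5 at 12 days. In controls the difference was 0.73 ± 0.31 and was not called (limma adjusted p = 0.103).

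Cdkn1a, or p21, is the CDK inhibitor that p53 is known to activate (chr17:29090979-29100722, plus strand). The controls had 30.1, 29.95, 29.01, 32.0 and 20.9 FPKM at 6 h and 37.1, 34.2, 34.0, 41.1 and 31.5 FPKM at 24 h. The QpE cultures had 32.9, 26.9, 28.02, 30.1 and 15.7 FPKM at 6 h and 41.3, 38.3, 46.0, 37.6 and 37.1 FPKM at 24 h. The 24 h QpE libraries all lay above the 6 h QpE libraries, and culture 5 was the lowest of its group in each of these 4 groups. Cdkn1a rose with time in QpE cultures by 0.60 ± 0.17 on the log2 scale (limma adjusted p = 0.0358). That call was lost when any of 7 libraries was left out, QpE culture 2 or 3 at 6 h or any QpE culture at 24 h, with adjusted p up to 0.0837. In controls the difference was 0.32 ± 0.12 and was not called (limma adjusted p = 0.0804).

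At 12 days the controls 1 to 5 had 28.1, 28.6, 65.5, 68.8 and 24.9 FPKM of Cdkn1a, and the QpE cultures had 69.3, 81.8, 53.5, 54.0 and 116.1 FPKM. The groups overlapped because controls 3 and 4 stood above QpE cultures 3 and 4, while QpE cultures 1, 2 and 5 stood at 2.46, 2.86 and 4.66 times the control of the same number. In cultures 3 and 4 the ratio was 0.817 and 0.784. Over all 5 cultures Cdkn1a averaged 43.2 ± 21.95 FPKM in controls and 74.9 ± 25.9 FPKM with QpE (SD, n = 5). The difference of 0.86 ± 0.34, with an interval of 0.11 to 1.61, did not pass the test over all genes (limma adjusted p = 0.138). A fit of all 30 libraries, which takes 1 spread from all groups, did call it (limma adjusted p = 0.0113). So did a fit of cultures 1, 2 and 5 only, at 1.64 (limma adjusted p = 0.0402), in which Ccnd1 was not called (0.114). In cultures 3 and 4 only the difference was -0.32 (0.0939). From 24 h to 12 days Cdkn1a rose in QpE cultures by 0.83 ± 0.20 (limma adjusted p = 0.00746), and every 12 day QpE library lay above every 24 h QpE library. In controls the difference over the same interval was 0.14 ± 0.29 (limma adjusted p = 0.761).

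**Figure D3:**
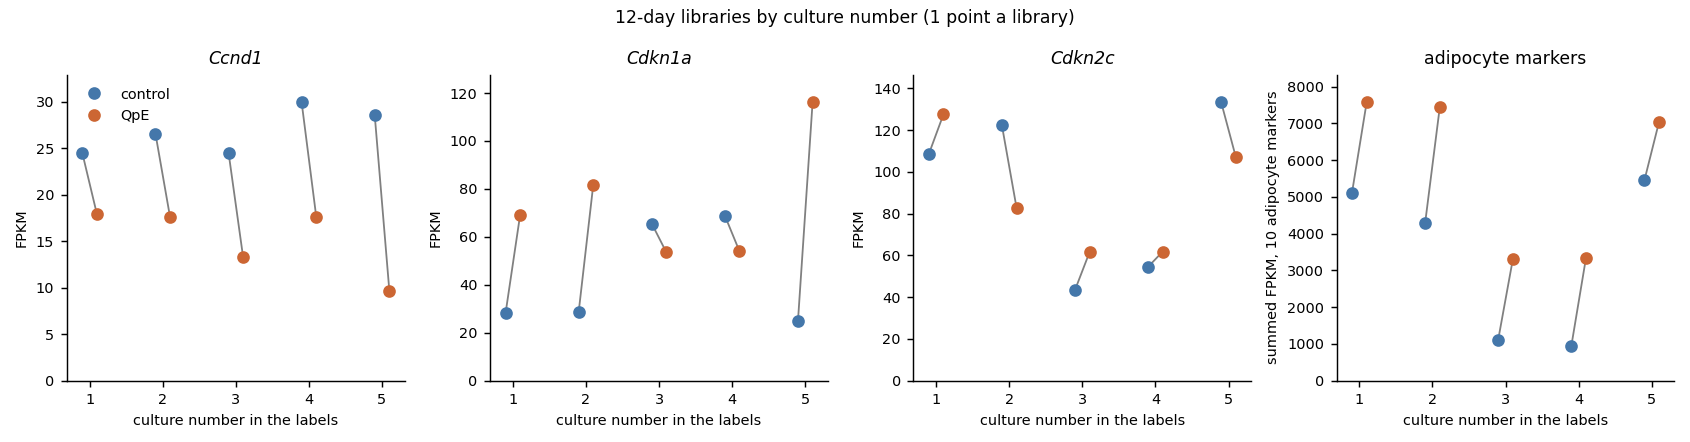
Ccnd1, Cdkn1a and Cdkn2c (FPKM) and the sum of 10 adipocyte markers (FPKM) in the 12 day libraries, by the culture number of the labels (horizontal axis); each point is a library and grey lines join the control and QpE libraries of a number. Ccnd1 is lower with QpE in all 5 numbers, Cdkn1a is higher with QpE in numbers 1, 2 and 5 and lower in numbers 3 and 4, and the markers are lowest in numbers 3 and 4.

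For Cdkn1a and Cdkn2c the transcripts measured begin at different start sites, and their promoters are shown for that reason. RefSeq's table of promoters (GRCm38.p6) matched 6 of the 10 genes, with 9 starts. Printed below are the bases just before a start that lie outside annotated exons, 5′ to 3′ on the gene's strand. The window of the other Cdkn2c start, at 109666756, lies wholly within annotated exons and is not printed, though its 3 GC boxes are counted further on. That start lies inside the long Cdkn2c transcript, which begins at 109667189, so it is not that transcript's own start. Capitals mark a match to the p53 binding site in the first sequence and GC boxes (GGGCGG) in the second, and no searched motif was marked in the third.
Cdkn1a upstream start, chr17:29090729-29090975, plus strand: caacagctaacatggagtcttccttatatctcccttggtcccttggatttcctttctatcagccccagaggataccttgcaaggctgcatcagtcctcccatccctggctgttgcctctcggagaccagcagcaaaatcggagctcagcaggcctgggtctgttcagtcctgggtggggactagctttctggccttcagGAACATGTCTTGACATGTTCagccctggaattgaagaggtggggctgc
Cdkn1a downstream start, chr17:29093519-29093768, plus strand: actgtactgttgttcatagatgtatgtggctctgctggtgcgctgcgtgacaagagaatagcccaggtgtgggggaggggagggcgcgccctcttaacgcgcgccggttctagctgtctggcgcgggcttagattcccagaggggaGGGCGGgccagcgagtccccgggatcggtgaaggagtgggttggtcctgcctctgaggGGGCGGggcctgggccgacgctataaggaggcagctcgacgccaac
Cdkn2c downstream start, chr4:109665373-109665609, minus strand: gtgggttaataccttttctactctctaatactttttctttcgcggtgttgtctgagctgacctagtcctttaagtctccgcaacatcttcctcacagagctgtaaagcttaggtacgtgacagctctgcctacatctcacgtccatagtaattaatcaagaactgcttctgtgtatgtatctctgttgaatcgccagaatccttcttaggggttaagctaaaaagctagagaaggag

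The transcript from the downstream Cdkn1a start, ENSMUST00000023829, held 94.2% of Cdkn1a FPKM over the 30 libraries, and the transcript from the upstream start, ENSMUST00000119901, held 4.71%. The upstream share was 6.42% ± 4.81 in controls and 5.52% ± 4.27 with QpE at 6 h, and 10.7% ± 3.0 and 5.71% ± 4.29 at 24 h (SD, n = 5). At 12 days it was 4.33% ± 2.59 in controls and 1.05% ± 1.15 with QpE. The level of the downstream transcript at 12 days was 40.6 ± 20.6 FPKM in controls and 73.9 ± 26.2 FPKM with QpE. For Cdkn2c the short transcript ENSMUST00000063531 from the downstream start held 61.6% and the long ENSMUST00000097921 held 38.4%. The short form took 55.1% ± 3.5 in 6 h controls, 63.3% ± 13.4 in 12 day controls and 68.1% ± 10.3 with QpE at 12 days. Shares of transcripts that overlap rest on the authors' assignment of fragments, and these shares were not tested.

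Motifs were counted on both strands in the 250 bases before each start, also over all 32851 promoters of the table. The p53 site, 20 bases made of 2 decamers with at most 1 mismatch, had a match before 1 of the 9 starts, the upstream Cdkn1a start, and before 0.0761% of all promoters. The GC box GGGCGG was found before 7 of 9 starts and 32.7% of all promoters. CCAAT was found before 3 of 9 and 33.9%. E2F site letters (TTTCCCGC, TTTGGCGC, TTTCGCGC and TTTGCCGC) were before 0 of 9 and 1.86%, and TATAAA before 0 of 9 and 12.4%. These are letters in a window of fixed length and say nothing of binding.

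Cdkn1b encodes p27, the inhibitor known to build up in resting cells (chr6:134920401-134925513, plus strand). Its means were 24.7 ± 4.56 and 23.5 ± 3.79 FPKM at 6 h in control and QpE, 27.3 ± 5.72 and 26.6 ± 4.59 FPKM at 24 h, and 24.1 ± 8.34 and 18.4 ± 4.01 FPKM at 12 days (SD, n = 5). The 12 day controls had 23.4, 18.1, 34.2, 30.4 and 14.1 FPKM and the QpE cultures 15.2, 13.1, 22.5, 20.5 and 20.7 FPKM. Controls 3 and 4 were again apart from the others, here as the highest, and 4 of 5 QpE libraries lay below the control of their number. The 12 day difference was -0.33 ± 0.24 and was not called (limma adjusted p = 0.444). From 24 h to 12 days Cdkn1b fell in QpE cultures by 0.52 ± 0.17 on the log2 scale (limma adjusted p = 0.0328), with overlapping groups, and the call was lost when any of 5 libraries was left out, QpE culture 3, 4 or 5 at 24 h or 1 or 2 at 12 days. In controls the difference was -0.22 ± 0.24 (limma adjusted p = 0.541).

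Rb1, the pocket protein that the cyclin kinases inactivate (chr14:73183673-73325822, minus strand), rose by 12 days. The 24 h controls had 3.94, 4.05, 4.04, 3.50 and 3.36 FPKM and the 12 day controls 8.93, 7.08, 5.38, 6.09 and 7.93 FPKM. The QpE cultures had 3.37, 3.68, 5.86, 6.70 and 3.79 FPKM at 24 h and 8.64, 7.74, 9.38, 11.1 and 10.9 FPKM at 12 days. The times did not overlap in either treatment, although QpE cultures 3 and 4 were already high at 24 h. Rb1 rose by 0.74 ± 0.13 on the log2 scale in controls, a ratio of 1.88 (limma adjusted p = 0.00189), and by 0.92 ± 0.19 in QpE cultures, a ratio of 2.04 (0.00313). At 12 days it was higher with QpE in 4 of 5 numbers, by 0.39 ± 0.15, with an interval of 0.06 to 0.73, and was not called (limma adjusted p = 0.133).

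**Figure D4:**
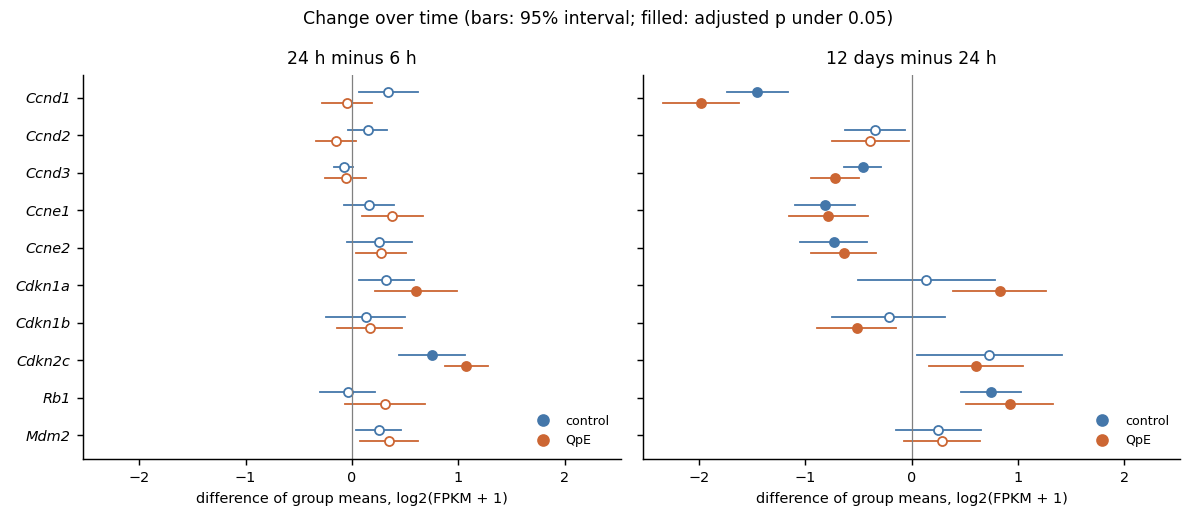
Change of the 10 genes over time, as the difference of group means of log2(FPKM + 1) (horizontal axis), in controls (blue) and QpE cultures (orange); bars are 95% intervals and filled points have a limma adjusted p under 0.05. Ccnd1 has the lowest values from 24 h to 12 days, -1.45 in controls and -1.98 with QpE, and Cdkn2c the highest from 6 h to 24 h, 0.75 and 1.075.

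Mdm2, the ligase that targets p53 (chr10:117688875-117710758, minus strand), stood above all other members in every library, at 774.2 to 1919 FPKM. The 12 day controls had 1150.0, 1172, 1721, 1919 and 1005 FPKM and the QpE cultures 1181, 1364, 1417, 1754 and 1445 FPKM. Cultures 3 and 4 were the highest of the controls. No comparison called it: the difference between QpE and control was -0.06 ± 0.11 at 6 h, 0.04 ± 0.11 at 24 h and 0.07 ± 0.22 at 12 days, the last with a limma adjusted p of 0.865. Both controls (0.25 ± 0.09, limma adjusted p = 0.0944) and QpE cultures (0.35 ± 0.12, 0.0742) had higher means at 24 h than at 6 h without passing the test.

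Its neighbour Slc35e3, 22921 bases away on chromosome 10, had a mean of 595.3 FPKM and a higher level than 99.4% of tested genes. The next gene, Nup107, had 14.03 FPKM, Rap1b had 47.3 FPKM, and Cpsf6 on the other side had 13.7 FPKM. The ratio of Mdm2 to Slc35e3 ran from 1.41 to 3.01 over the 30 libraries, with a median of 1.93. Amplification of the Mdm2 gene has been described in 3T3-L1 as background knowledge, and gene copy number was not measured in these data, so its part in the level was not tested. A further 13 assembled transcripts with no gene name at the Mdm2 locus held 24.6% of the locus's FPKM and are left out of the sum.

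At the early times no member was called between QpE and control, as was the case for nearly all tested genes. At 6 h limma called 0 of 10 members and 0% of all genes tested, with 372 of 12744 genes at an unadjusted p under 0.05 and no member among them. Differences of the members ran from -0.19 for Cdkn2c to 0.11 for Ccnd1. At 24 h limma called 0 of 10 members and 0.00785% of all genes tested, with 1022 genes at an unadjusted p under 0.05 and again no member. The differences ran from -0.28 for Ccnd1 to 0.21 for Rb1. At 12 days they ran from -0.81 for Ccnd1 to 0.86 for Cdkn1a, and the 95% intervals of Cdkn1a, Cdkn2c and Cdkn1b were the widest.

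**Figure D5:**
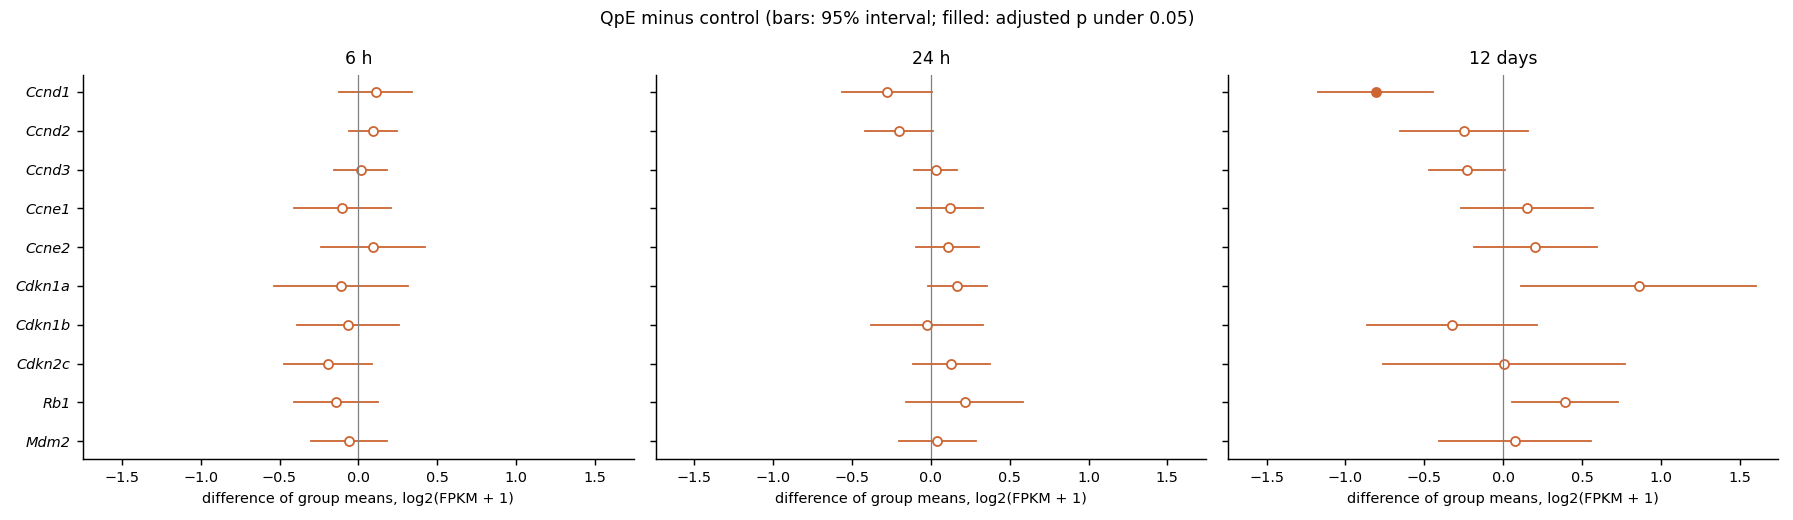
Difference between QpE and control cultures for the 10 genes at 6 h, 24 h and 12 days, on the log2(FPKM + 1) scale (horizontal axis), with 95% intervals; the filled point has a limma adjusted p under 0.05. Ccnd1 at 12 days, at -0.81, is the only filled point, and intervals are widest at 12 days for every gene but Rb1.

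Over time more members were called, as were more of all tested genes. In controls 1 of 10 was called from 6 h to 24 h (Cdkn2c higher), against 17.8% of all genes, and 5 of 10 from 24 h to 12 days, against 28.6%, with Ccnd1, Ccnd3, Ccne1 and Ccne2 lower and Rb1 higher. In QpE cultures 2 of 10 were called from 6 h to 24 h (Cdkn1a and Cdkn2c higher), against 18.8%, and 8 of 10 from 24 h to 12 days, against 37.5%. The 8 called in QpE cultures from 24 h to 12 days were the same 4 cyclins and Cdkn1b lower, and Cdkn1a, Cdkn2c and Rb1 higher. The counts from 6 h to 24 h are near the background. The steps from 6 h to 24 h and from 24 h to 12 days share the 24 h libraries of their treatment, so a high 24 h value enters them with opposite signs. The interaction between QpE and time called none of the members between 24 h and 12 days, where 0.518% of all genes were called by limma and 1993 had an unadjusted p under 0.05, Ccnd1 among the members.

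Cdk6 was the one called among the kinases that the cyclins and inhibitors act on. Of 7 genes listed as G1 kinases and their activators, 1 was called at 12 days, a share near the 9.13% of all genes: Cdk6 was higher with QpE, at 9.21 ± 1.40 against 4.26 ± 2.10 FPKM (SD, n = 5), by 1.03 ± 0.25 on the log2 scale (limma adjusted p = 0.0319). The median of the list was 0.04, against 0.00 for all tested genes. The Cdk6 difference was 0.46 and not called (limma adjusted p = 0.149) once assembled transcripts with no name were joined to the gene. In controls Cdk4, the main partner of D-type cyclins, fell from 24 h to 12 days by 0.53 ± 0.09 (limma adjusted p = 0.00225), Cdk2 by 0.43 ± 0.10 (0.00942) and Mnat1, of the CDK-activating complex, by 0.43 ± 0.15 (0.0473), so 3 of 7 were lower, against 17.3% of all genes. In QpE cultures Cdk4 fell by 0.83 ± 0.12 (0.000492) and Cdk6 rose by 0.93 ± 0.19 (0.00363).

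Of the 4 other CDK inhibitors listed, 3 were tested, and 2 were lower with QpE at 12 days, against 5.23% of all genes. Cdkn2b, or p15, an inhibitor of Cdk4 and Cdk6, averaged 34.0 ± 7.60 against 60.7 ± 12.6 FPKM, a difference of -0.82 ± 0.19 (limma adjusted p = 0.027). Cdkn2a, whose locus encodes both p16 and Arf from overlapping transcripts, averaged 191.6 ± 17.6 against 245.2 ± 11.3 FPKM, a difference of -0.36 ± 0.09 (0.0376). This call was lost with the culture number as a block (0.0543), and the difference was -0.03 when only the most abundant transcript was used (0.898). From 6 h to 24 h Cdkn2b and Cdkn2d, or p19, rose in controls by 0.64 ± 0.11 and 0.61 ± 0.11 (limma adjusted p = 0.00386 and 0.0044). All 3 fell in controls from 24 h to 12 days, where 17.3% of all genes did, Cdkn2d by 0.66 ± 0.11 (0.00204), Cdkn2b by 0.54 ± 0.13 (0.0118) and Cdkn2a by 0.38 ± 0.06 (0.00113).

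Of 7 genes for the degradation of cyclins and inhibitors, 1 was called at 12 days, a share near the 9.13% of all genes. Skp2, the subunit of a ubiquitin ligase that recognises p27, was at 3.24 ± 0.75 FPKM with QpE against 5.62 ± 0.53 FPKM in controls, a difference of -0.65 ± 0.14 (limma adjusted p = 0.0227). It also fell over time, by 0.95 ± 0.09 in controls from 24 h to 12 days (limma adjusted p = 5.94e-05) and by 1.57 ± 0.14 in QpE cultures (4.43e-05). The calls of Cdk6, Cdkn2b, Cdkn2a and Skp2 at 12 days were each lost when some of the 10 libraries were left out in turn. With the most abundant transcript only, Skp2 (-0.60, limma adjusted p = 0.107) and Cdk6 (0.0793) were not called. With no filter on low values, Cdk6 (limma adjusted p = 0.0652), Cdkn2a (0.0672) and Cdkn2b (0.0561) were not called, while Skp2 was (0.0424).

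Between QpE and control at 12 days limma called 0 of the 9 other pocket proteins and E2F factors tested, against 9.13% of all genes. It also called 0 of 20 S phase targets of E2F and 0 of 20 genes of G2 and mitosis. The medians of these lists, in that order, were 0.06, -0.09 and -0.06, against 0.00 for all tested genes. At 24 h 19 of 20 mitosis genes and 17 of 20 S phase genes had differences above 0, with medians of 0.27 and 0.15 and none called, while 53.4% of all tested genes were above 0 with a median of 0.01. The other times leaned the other way. Above 0 were 4 and 3 of 20 at 6 h, against 44.4% of all tested genes, and 6 and 7 of 20 at 12 days, against 50.2%. Over time in controls 11 of 20 S phase genes and 18 of 20 mitosis genes rose from 6 h to 24 h, where 8.08% of all genes rose. By 12 days 16 and 19 fell against 24 h, where 17.3% of all genes fell. Among them Ccnb2, a mitotic cyclin, rose by 1.48 ± 0.17 (limma adjusted p = 0.000657) and Uhrf1, which maintains DNA methylation at replication, rose by 0.81 ± 0.10 (0.000783). Mki67, a proliferation marker, then fell by 2.39 ± 0.47 (0.00423) and Mcm5, a subunit of the replicative helicase, by 1.36 ± 0.16 (0.000256). QpE cultures had 15 and 18 higher at 24 h, against 10% of all genes, and 17 and 20 lower at 12 days, against 22.1%.

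Of 20 tested genes listed as p53 and its targets, limma called 0 between QpE and control at 12 days, against 9.13% of all genes, with a median of -0.09. Over time in controls 4 rose and 3 fell from 6 h to 24 h, where 8.08% of all genes rose and 9.7% fell. Between 24 h and 12 days 4 rose and 4 fell, where 11.3% rose and 17.3% fell, so the share that fell is near the background. Gadd45a, which is induced by stress and binds p21, rose by 0.85 ± 0.17 (limma adjusted p = 0.0082) and then by 1.52 ± 0.21 (0.000543), to 125.4 FPKM, while Fas, a death receptor, fell by 0.67 ± 0.13 from 24 h to 12 days (0.00323). The lists were chosen with earlier results of these data known, so their counts are descriptions.

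The genes whose log2 values were most like each member over the 30 libraries were taken from 9189 genes reaching a group mean of 5 FPKM. Libraries of a group share their time and treatment, so these correlations mostly follow the group means. Ccnd1 was most like Golm1 (r = 0.965), Adam10 (0.961) and Scara5 (0.961). Ccne1 was most like Nasp (r = 0.948), Rpa2 (0.936) and Mcm6 (0.922), and Rpa2 (0.913) led for Ccne2. Cdkn2c was most like G0s2 (r = 0.951), Echdc3 (0.945) and Gypc (0.936), and Rb1 most like Vwa8 (0.945), Sucla2 (0.94) and Pnpla8 (0.94). The lead was Ing1 for Ccnd3 (r = 0.955), Aff4 for Mdm2 (0.885), Ddit4 for Cdkn1a (0.871), Fam98a for Ccnd2 (0.854) and Ptch1 for Cdkn1b (0.77). Among the members, Ccnd1 ran with Ccnd3 (r = 0.911) and opposite to Rb1 (-0.884).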

How the data were processed

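The authors deposited FPKM values per transcript in 1 table for 30 libraries. Per the submitters' processing notes, HISAT, HISAT2 and StringTie were used with GRCm38, without versions. The sources used here give neither settings nor use of strand, and depth is unknown. In 10 libraries 11 deposited FPKM values lay just below 0 (lowest -7e-05) and were set to 0.

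Named transcripts were summed per gene, and genes reaching 1 FPKM in at least 5 libraries (12744) were tested as log2(FPKM + 1), a scale that understates changes of low genes. The test was limma 3.58.1 in R 4.3.3 with a mean-variance trend, on the compared groups alone (8 residual degrees of freedom; interactions took 4 groups), two-sided, with Benjamini-Hochberg adjustment over all genes tested and a threshold of 0.05. Fits were tested on simulated data. A first fit also tested assembled loci without a name (16259 transcripts in all) as features of their own. Its counts of called genes and its lower correlations between libraries had been seen when the test was limited to named genes, and it is kept as an alternative added after seeing the data. Alternatives concerned the libraries fitted, the block, pseudocount, filter, scaling, transcripts and left-out cultures.

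Deviations from group means of same-numbered libraries, control and QpE, correlated at 0.154 to 0.315 at 12 days. All lay above the bound of 0.1 set for taking the numbers to pair libraries. QpE libraries 1, 2 and 3 still correlated more with a control of another number than with that of their own. Which library pairs with which is therefore not settled, and the labels do not say. Comparisons by number at 12 days are descriptions, and the main fits used no pairing. At 6 h and 24 h the lowest were 0.027 and 0.02, and the numbers were not taken to pair, nor between times.

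The 10 genes are named in every group, and other genes only from listed pathways (counts, and up to 4 called genes of the largest change) or by likeness over libraries. Members and lists were chosen with earlier results of these data known. Correlations over libraries are given without p.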

Additional observations from a re-analysis of the deposited data

Results flagged for a closer look

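Over 60 sets of 5 cultures (10 genes in 6 groups), 2 held a culture whose gap to the others was larger than Dixon's bound, where chance gives about 1 in 20. QpE culture 5 at 24 h had 70.8 FPKM of Ccnd1 against 57.8 to 60.5 FPKM in the other cultures. Control culture 5 at 6 h had 20.9 FPKM of Cdkn1a against 29.01 to 32.0 FPKM. The effect of QpE on Ccnd1 differed between 12 days and 6 h, with an interaction of -0.92 on the log2 scale (limma adjusted p = 0.0196).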

How the results depend on the processing

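The number of members called between QpE and control stayed at 0 at 6 h and 24 h under every alternative that was run. At 12 days it was 1, became 3 in a fit of all 30 libraries (Ccnd1 and Ccnd3 lower, Cdkn1a higher), was 0 with cultures 3 and 4 only, and ran from 0 to 1 with libraries left out in turn. With cultures 1, 2 and 5 only it was also 1, but the gene called was Cdkn1a (1.64, limma adjusted p = 0.0402) and not Ccnd1 (0.114). In controls from 6 h to 24 h it was 1, became 2 with the replicate block and 0 with cultures 3 and 4 only, and ran from 1 to 2 with libraries left out. In controls from 24 h to 12 days it was 5, became 8 with cultures 1, 2 and 5 only, and ran from 5 to 6. In QpE cultures from 6 h to 24 h it was 2. It was 1 in the fit of all 30 libraries, with no filter, with TPM scaling, with the most abundant transcript only, with cultures 1, 2 and 5 only, with cultures 3 and 4 only, and with unnamed loci as features of their own, an alternative chosen after seeing the data. It was 4 with unnamed transcripts joined and ran from 1 to 4 with libraries left out. In QpE cultures from 24 h to 12 days it was 8, became 3 with cultures 3 and 4 only, and ran from 6 to 8. Those 3 were all lower, and only 2 of them were among the 8. Ccnd2 (-0.70, limma adjusted p = 0.0422) was called only there. Rb1 (0.63, 0.0918), Cdkn1a (0.36, 0.155) and Cdkn2c (0.17, 0.293) were then not called. The interaction of 12 days with 24 h had 0, became 1 with cultures 1, 2 and 5 only, and stayed at 0 with libraries left out. The interaction of 12 days with 6 h had 1, became 0 with cultures 3 and 4 only and 0 with culture number 5 left out of every group (chosen after seeing the data), and stayed at 1 with libraries left out singly. It was also 1 with cultures 1, 2 and 5 only. The gene called there was Cdkn1a (1.78, limma adjusted p = 0.0499) and not Ccnd1 (-1.03, 0.0797). Fits of fewer cultures test with fewer samples, and otherwise the cause was not tested.

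Differences changed sign in controls from 24 h to 12 days for Cdkn1a with cultures 1, 2 and 5 only (-0.32, limma adjusted p = 0.0451) and for Cdkn1b with cultures 3 and 4 only (0.59, limma adjusted p = 0.0438). Among differences that were not called, QpE against control at 12 days changed sign for Cdkn1a (-0.32) and Mdm2 (-0.21) with cultures 3 and 4 only and for Cdkn2c (-0.21) with cultures 1, 2 and 5 only. Cdkn2c and Mdm2, at 0.01 and 0.07, also changed sign with TPM scaling (-0.09 and -0.02) and with some single libraries left out. These sets were known to stand apart in earlier results. Ccnd1 at 12 days ranged from -0.90 to -0.64 over 22 alternatives, was called in 17, and had limma adjusted p from 0.000128 to 0.114 (0.0325 with the replicate block). At 12 days the block called no other member between QpE and control, though it changed the SE. It gave 0.86 ± 0.41 for Cdkn1a (limma adjusted p = 0.206) and 0.01 ± 0.16 for Cdkn2c (0.981). Over all genes it called 826 higher and 862 lower, against 498 and 666 without it. The block changed the call of Cdkn1a in controls (0.0349) and Mdm2 in QpE cultures (0.0462) from 6 h to 24 h, and of Cdkn2c in controls from 24 h to 12 days (0.0435), where the numbers were not taken to pair.

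Scaling moved the balance of all called genes. At 12 days 498 were higher and 666 lower with QpE, against 299 and 953 with TPM scaling. In controls from 24 h to 12 days 1443 rose and 2200 fell, against 1736 and 1653 with median-ratio scaling. In QpE cultures this was 1961 and 2813, against 2350 and 2366, and from 6 h to 24 h 1276 and 1120, against 853 and 1649 with TPM scaling. The interaction of 12 days with 24 h had 26 higher and 40 lower, against 16 and 50 with TPM scaling, and that with 6 h 261 and 279, against 118 and 453. Depth is unknown, so its part in the precision of single values was not tested.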
